A study of Homo sapiens with 14 samples.

Results

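The cytosolic heat shock proteins are described here through 10 genes chosen by name, HSPA1A, HSPA1B, HSPA8, HSPA4, HSPH1, HSP90AA1, HSP90AB1, DNAJA1, DNAJB1 and HSPB1, out of the 58434 gene symbols counted. All 10 were detected in each of the 14 libraries and passed every filter on low counts. The cells were MDA-MB-231, an established human triple negative breast cancer line, made stable for a doxycycline-inducible lentiviral shRNA with a red fluorescent reporter, selected with puromycin and sorted. The shRNA was either non-silencing (shNSi, 2 cultures) or directed against DAP5 (shDAP5, 2 cultures). DAP5, the product of EIF4G2, is a relative of eIF4G that acts in translation initiation. All 4 cultures received doxycycline at 1 µg/ml for 6 days, so the controls share the drug and the vector type with the silenced cells. Total mRNA, light polysome mRNA (few ribosomes per mRNA) and heavy polysome mRNA (many ribosomes) were sequenced from every culture, and a moderate polysome pool from the shNSi cultures alone.

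By their labels, the polysome pools sequenced were not the same in both lines, and whether the gradients were cut alike is not stated. The gradient of the shNSi cultures is represented by 3 pools and that of the shDAP5 cultures by 2. The shDAP5 libraries titled light carry in their descriptions the code that marks the moderate pool of shNSi, and the title was followed here. In each comparison of polysome mRNA between the lines, a possible difference in pool definition and the silencing therefore cannot be told apart. The shDAP5 total libraries, titled total polysome, were taken as total mRNA.

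The libraries held between about 25899840 and 30795910 counts. In total mRNA the line markers VIM (4266 to 5624 CPM, counts relative to the scaled library size), CD44 and KRT18 were detected, PGR had no count, ESR1 and CDH1 stayed at or below 0.415 CPM, EPCAM lay between 3.93 and 5.32 CPM, and PTPRC and ALB, markers of leukocytes and liver, had at most 3 counts. EIF4G2, the silenced gene, was at 1485 and 1430 CPM in the shNSi total libraries and at 572 and 782 CPM in the shDAP5 ones. It fell by 1.11 ± 0.18 on the log2 scale (SE; edgeR quasi-likelihood test, adjusted p = 0.0172). Without shDAP5 replicate 1 the fall was 0.90 and its adjusted p was 0.68, and with limma the adjusted p was 0.107.

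Heat shock proteins are molecular chaperones, which bind unfolded or partly folded proteins and keep them from aggregating. HSP70 proteins hold and release their clients in a cycle of ATP binding and hydrolysis, J-domain proteins deliver clients and start hydrolysis, and the HSP110 proteins exchange the nucleotide to end the cycle. HSP90 acts later, on near-native clients such as kinases and steroid receptors, and small heat shock proteins bind unfolding proteins without ATP. Many of these genes are induced by the transcription factor HSF1, which binds heat shock elements, and cancer cells often carry high levels of the proteins.

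HSPA1A and HSPA1B, the stress-inducible HSP70 genes, are shown by sequence because their counts could have been split between them. They lie side by side on chromosome 6, HSPA1A at chr6:31815464-31817946 and HSPA1B at chr6:31827735-31830255, both on the plus strand of GRCh38. Their coding sequences are 1926 nt long, match at 99.8% of positions and encode 641 identical residues. They differ at 4 positions, counted from the first base of the start codon with the HSPA1A base first: G1710T, G1860C, C1905T and A1920G. The capital letter in the following stretches of coding sequence marks the first 3 of these differences, all silent.
HSPA1A at chr6:31817451-31817480: ggacaagaagaaggtGctggacaagtgtca
HSPA1B at chr6:31829645-31829674: ggacaagaagaaggtTctggacaagtgtca
HSPA1A at chr6:31817601-31817630: tggtcccgggcctggGggcttcggggctca
HSPA1B at chr6:31829795-31829824: tggtcccgggcctggCggcttcggggctca
HSPA1A at chr6:31817646-31817675: gtctgggtcaggcccCaccattgaggaggt
HSPA1B at chr6:31829840-31829869: gtctgggtcaggcccTaccattgaggaggt
Of the 50-base windows of the HSPA1A transcript, 72.6% occurred unchanged in another gene's transcript, and 73.5% of those of HSPA1B. All shared windows lay outside the 3' untranslated regions, at 93.8% and 96.4% of the coding windows. HSPA1A had between 18 and 270 counts per library and HSPA1B between 213 and 3090, and how reads that fit both were counted is not given in the sources used here. The levels of the pair are therefore uncertain as single genes, and also as a sum if shared reads were left out. The summed counts are given for the comparisons of total, light and heavy mRNA between the lines, and of heavy relative to total mRNA.

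The other members shared less sequence. Other genes held 18.8% of the windows of HSP90AB1, 18.2% of HSP90AA1, 15.4% of HSPA8 and 11.4% of HSPB1, and the gene that shared most with each was HSP90AB3P, HSP90AA2P, HSPA8P1 and HSPB1P1 in turn. For DNAJB1 the share was 2.57%, for DNAJA1 1.5%, and no window of HSPA4 or HSPH1 occurred elsewhere. On GRCh38 the genes lie at chr11:123057489-123063230 (HSPA8, minus strand), chr5:133051962-133106449 (HSPA4, plus), chr13:31134974-31162388 (HSPH1, minus), chr14:102080738-102139699 (HSP90AA1, minus) and chr6:44246166-44253888 (HSP90AB1, plus). The J-domain genes lie at chr9:33025211-33039907 (DNAJA1, plus) and chr19:14514770-14529770 (DNAJB1, minus), and HSPB1 at chr7:76302544-76304295 (plus). The coding sequences run from 618 nt for HSPB1, over 1023 nt for DNAJB1, 1194 nt for DNAJA1, 1941 nt for HSPA8, 2175 nt for HSP90AB1, 2199 nt for HSP90AA1 and 2523 nt for HSPA4, to 2577 nt for HSPH1.

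Promoters of the members were read from RefSeq on GRCh38.p14, from 250 bases before to 50 bases after each start, and searched on both strands for the heat shock element, built of GAA units in alternating orientation. A run of 3 units, GAA and TTC in turn with NN between neighbours, stood in the promoters of HSPA8, DNAJA1, HSP90AA1 (the second of its 2 starts) and HSP90AB1 (the third of its 3 starts), and in 0.490% of the 35116 promoters searched. A run of 2 units, GAANNTTC or TTCNNGAA, which every run of 3 also contains, stood in those of HSPA1A, HSPA1B, HSPB1 and DNAJB1 as well, against 13.5% of all promoters. The runs are shown in capitals, each read 5' to 3' along its gene.
HSPA8 at chr11:123062345-123062374, minus strand: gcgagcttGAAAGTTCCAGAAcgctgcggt
HSP90AA1 at chr14:102087111-102087140, minus strand: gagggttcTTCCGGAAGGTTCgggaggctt
HSP90AB1 at chr6:44247770-44247799, plus strand: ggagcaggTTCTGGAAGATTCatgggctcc
DNAJA1 at chr9:33025268-33025297, plus strand: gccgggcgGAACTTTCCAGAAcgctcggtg
HSPA1A at chr6:31815426-31815455, plus strand: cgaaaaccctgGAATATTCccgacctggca
HSPA1B at chr6:31827622-31827651, plus strand: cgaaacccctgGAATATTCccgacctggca
These letters describe the promoters and were not tested for binding. The promoters of HSPA4 and HSPH1 held no such run in the window searched.

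The first question is how abundant these mRNAs were in the control cells. Divided by transcript length, the shNSi total libraries held HSPA8, the constitutive HSP70, at 1478 ± 85.3 CPM per kb (SD, n = 2), followed by the constitutive HSP90AB1 at 980 ± 72.5 and the inducible HSP90AA1 at 871 ± 51.0 CPM per kb. The lowest values of each exceeded the highest of the next. The order of the HSP90 genes rests on the transcript length used. Before that division HSP90AA1 was the higher, at 2822 and 3065 CPM against 2483 and 2757 CPM for HSP90AB1. HSPB1, a small heat shock protein, was at 199 ± 28.0 CPM per kb and the J-domain gene DNAJA1 at 190 ± 10.9 CPM per kb, a difference smaller than the spread between cultures. DNAJB1, the J-domain partner of inducible HSP70, was at 109 ± 5.18 CPM per kb. The HSP110 genes HSPA4 and HSPH1 were at 70.3 ± 4.16 and 57.7 ± 3.65 CPM per kb. The inducible pair, as counted, was lowest, HSPA1B at 15.7 ± 3.78 and HSPA1A at 1.64 ± 0.46 CPM per kb. HSPA8 and the HSP90 genes thus stood at the top of the order. The rank of the inducible HSP70 pair holds only for reads as counted, since reads shared by the pair may have been left out.

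**Figure D1:**
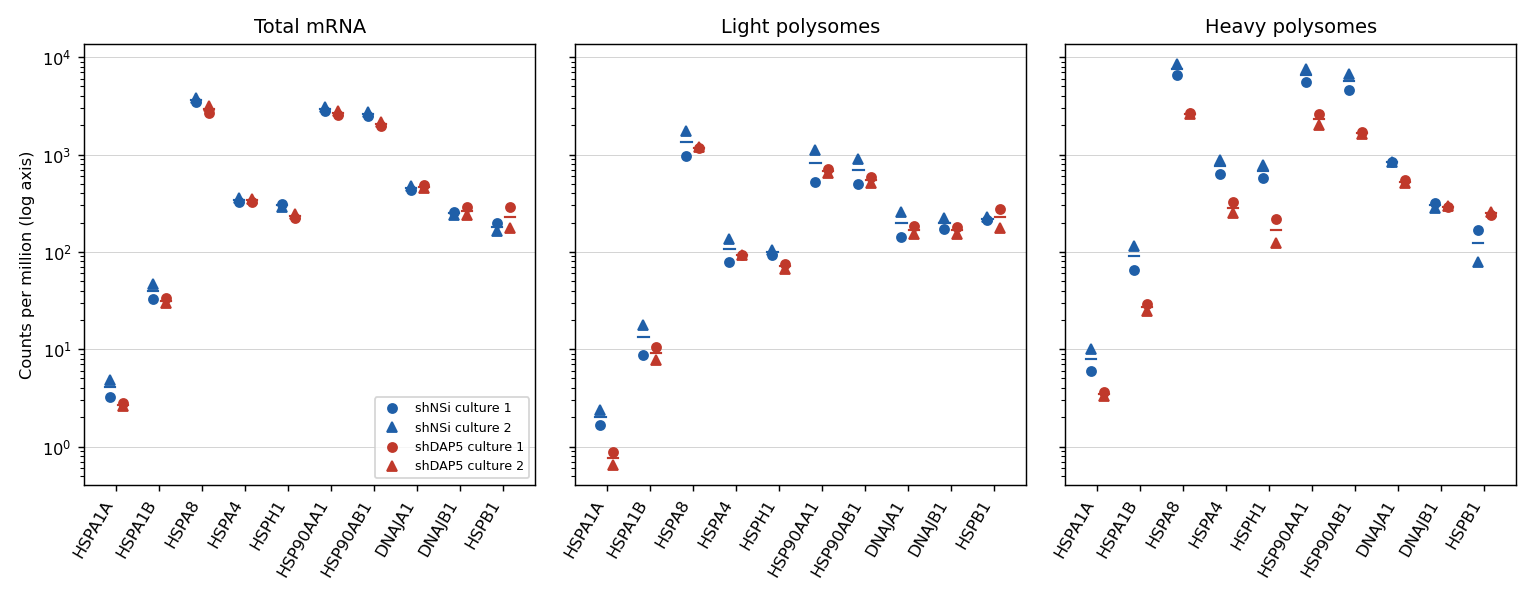
CPM (log axis) of the 10 genes in the total, light and heavy libraries, scaled within each fraction. Circles are culture 1, triangles culture 2, short lines the means of 2 cultures, blue shNSi and red shDAP5. In heavy polysomes the red points of HSPA1A to HSP90AB1 lie below the blue ones, those of DNAJB1 lie among them and those of HSPB1 lie above.

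The next comparison asks whether the amount of these mRNAs in the cell changed with DAP5 silencing. None of the 10 passed the test in total mRNA, where 0.354% of the 14992 genes tested were called. Their median log2 change was -0.23, beside 0.014 for all genes. At an unadjusted p under 0.05, a level that 12.0% of all genes passed, stood 1 member, HSP90AB1. With DESeq2 and with limma 0 members were called as well. The shDAP5 cultures lay below both shNSi cultures for 5 members, as did 20.4% of all genes, and above both for none, as did 21.9% of all genes.

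Of the HSP70 genes, HSPA8 had 3493 and 3790 CPM in the shNSi and 2661 and 3177 CPM in the shDAP5 total libraries. The groups did not overlap, and the log2 change was -0.32 ± 0.16 (SE; edgeR, adjusted p = 0.452). HSPA1B had 32.9 and 46.4 CPM against 33.3 and 29.9 CPM, with overlapping groups. HSPA1A had 3.26 and 4.87 CPM in shNSi and 2.78 and 2.61 CPM in shDAP5, without overlap. For the summed pair the log2 change in total mRNA was -0.35 (edgeR, adjusted p = 0.572).

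Of the HSP90 genes, HSP90AB1 had 2483 and 2757 CPM in shNSi and 1949 and 2181 CPM in shDAP5, a log2 change of -0.34 ± 0.16 (edgeR, adjusted p = 0.403). HSP90AA1 had 2822 and 3065 CPM against 2528 and 2799 CPM, a narrower gap. The co-chaperones were mixed. HSPH1 had 313 and 286 CPM in shNSi and 225 and 246 CPM in shDAP5, whereas HSPA4 had 325 and 353 CPM against 329 and 350 CPM, nearly the same levels. DNAJA1 was at 435 and 471 CPM against 488 and 450 CPM, and DNAJB1 at 256 and 239 CPM against 287 and 237 CPM, both with overlapping groups. HSPB1, at 199 and 163 CPM in shNSi, was at 287 and 174 CPM in shDAP5, where a single culture stood above the rest. Its log2 change was 0.35 ± 0.23 and became -0.06 without shDAP5 replicate 1.

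The position of the mRNAs on the control gradient was read from the shNSi libraries alone, as the log2 ratio of each pool to total mRNA of the same culture. The HSP70, HSP110 and HSP90 mRNAs were concentrated in heavy polysomes. HSP90AA1, for example, stood at -2.48 and -1.59 in the light pool, at -1.94 and -0.27 in the moderate pool and at 1.26 and 1.67 in the heavy pool of the 2 cultures. HSPA8 stood at -1.92 and -1.25 in the light, -1.71 and -0.36 in the moderate and 1.17 and 1.52 in the heavy pool. For both genes the moderate pool of the second culture lay nearer to total mRNA than that of the first.

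The heavy pool exceeded the light pool for 9 of the 10 members, where 33.8% of 15514 genes were called higher and 65.6% in either direction (edgeR, shNSi libraries). The log2 differences were 3.51 ± 0.46 (SE) for HSP90AA1, 3.45 ± 0.42 for HSP90AB1, 3.26 ± 0.35 for HSPA4, 3.20 ± 0.26 for HSPA1B, 3.17 ± 0.33 for HSPH1 and 2.94 ± 0.43 for HSPA8. These are near the top of the table, HSP90AA1 ranking 15492 of 15514 from the lowest. HSPA1A (2.37 ± 0.30) and DNAJA1 (2.55 ± 0.38) followed, with DNAJB1 lower at 1.02 ± 0.29. Adjusted p-values of these 9 ran from 7.12e-06 to 0.00711 in edgeR. That of DNAJB1 was lost with library sizes alone (0.54, adjusted p = 0.106) and with limma (0.42, adjusted p = 0.0929). The exception was HSPB1, at -0.53 ± 0.31 (edgeR, adjusted p = 0.141), which had ratios of heavy to light of -0.01 and -1.05 in the 2 cultures. It was called lower in heavy with library sizes alone (-1.01, adjusted p = 0.0131) and with limma (-1.05, adjusted p = 0.00675).

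The moderate pool separated the members further. Heavy exceeded moderate for 8 members, where 36.0% of all genes were called and 23.1% called higher, by between 1.15 ± 0.37 for DNAJA1 and 2.90 ± 0.41 for HSP90AB1. The call of DNAJA1 was lost with library sizes alone (0.81, adjusted p = 0.0841), with limma (0.83, adjusted p = 0.0847) and with no term for each culture (1.02, adjusted p = 0.172). DNAJB1 was at 0.07 ± 0.29, a sign that turned to -0.28 with library sizes alone and to -0.36 with quantile-normalized limma. HSPB1, with the shortest coding sequence, was at -0.78 ± 0.31 (edgeR, adjusted p = 0.0616), and was called lower in heavy with library sizes alone (-1.12, adjusted p = 0.0127), DESeq2 (-0.79, adjusted p = 0.0196) and limma (-1.13, adjusted p = 0.00906).

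**Figure D2:**
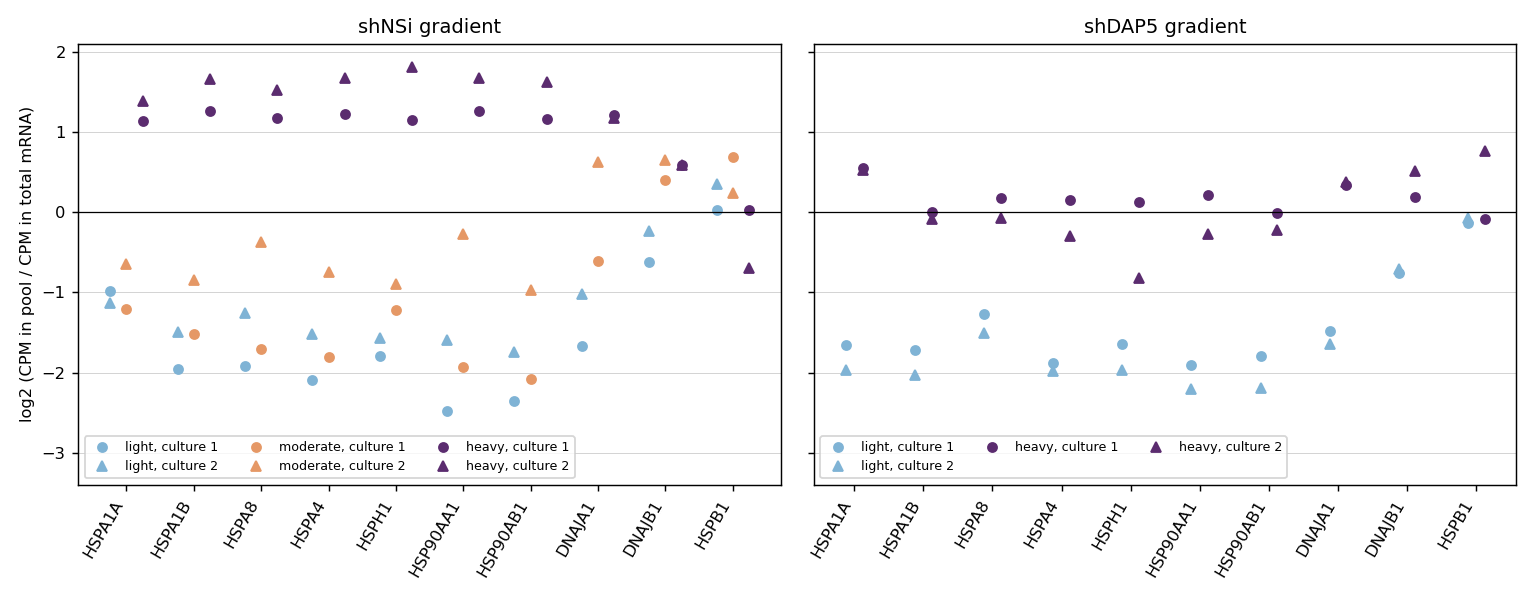
Log2 ratio of each polysome pool to total mRNA of the same culture for the 10 genes, in shNSi (left, 3 pools) and shDAP5 (right, 2 pools). Circles are culture 1 and triangles culture 2. In shNSi the heavy pool lies above total mRNA in both cultures for all genes but HSPB1, and in shDAP5 the heavy ratios of HSPA1B, HSPA8, HSPA4, HSPH1 and both HSP90 genes lie between -0.81 and 0.22.

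In shDAP5 cells heavy again exceeded light for 9 members, where 25.9% of 15619 genes were called higher and 50.7% in either direction (edgeR, shDAP5 libraries). The log2 differences ran from 1.09 ± 0.19 for DNAJB1 to 2.46 ± 0.30 for HSPA1A, and HSPB1 was at 0.46 ± 0.24 (adjusted p = 0.122). Its shNSi estimate of -0.53 turned to 0.13 without shNSi replicate 2. The estimates of HSPA1A and DNAJB1 were close to the 2.37 and 1.02 of shNSi, and those of the other 7 were smaller. That of HSPA1A rests on 25 and 18 counts in the shDAP5 light libraries. How reads shared with HSPA1B were counted is not given, and the pair was not summed for the gradients. HSP90AA1 stood at 0.22 and -0.28 in heavy relative to total mRNA, and HSPA8 at 0.18 and -0.08. Their heavy level was therefore close to that in total mRNA, unlike in shNSi. The heavy to light difference itself was tested between the lines in 1 fit of 8 libraries. It was smaller in shDAP5 for HSPH1, by -1.65 ± 0.48 (edgeR, adjusted p = 0.0420), and for HSPA1B, by -1.31 ± 0.39 (adjusted p = 0.0475), in a fit that called 6.75% of 15878 genes, 5.21% lower. Both genes were lower in the 2 shDAP5 cultures than in the 2 shNSi cultures, as were 28.3% of all genes. The estimates for HSP90AB1 (-1.53 ± 0.59), HSPA8 (-1.45 ± 0.62), HSP90AA1 (-1.43 ± 0.61) and HSPA4 (-1.35 ± 0.48) did not pass. Both calls were lost without shDAP5 replicate 1 and without shDAP5 replicate 2, and that of HSPA1B also without either shNSi replicate. Both were also lost with limma, a replicate block, coding length offsets or shNSi heavy and moderate summed. Across 14 alternatives the estimates ran from -1.39 to -0.34 for HSPA1B and from -2.03 to -0.70 for HSPH1.

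Heavy polysome mRNA was then compared between the lines, the study's measure of well-translated mRNA before division by total mRNA. Of the members, 7 fell and HSPB1 rose, in a fit that called 30.9% of 14270 genes, 16.7% lower and 14.2% higher. The members took up 1.82% and 2.31% of all counts in shNSi heavy polysomes, against 0.997% and 0.786% in shDAP5. Their median log2 change was -1.46, beside 0.094 for all genes. The shDAP5 cultures lay below both shNSi cultures for 8 members, as did 30.9% of all genes, and above both for 1, as did 36.4%. Leaving out shDAP5 replicate 2 left 0 members and 2 genes called, with a median of -1.30 for the members, and leaving out shNSi replicate 2 left 4 members, HSPA1B, HSPA4, HSPH1 and HSP90AB1, among 2106 of 14957 genes called. The estimates of the line markers VIM, CD44 and KRT18 were also below 0. EPCAM, low in these cells, went the other way, with 3.47 and 2.82 CPM in shNSi and 4.17 and 5.08 CPM in shDAP5. VIM, an intermediate filament gene, had 10605 and 11546 CPM in shNSi and 4207 and 4458 CPM in shDAP5 and fell by 1.35 ± 0.40 (edgeR, adjusted p = 0.00559), CD44 fell by 1.94 ± 0.39 (adjusted p = 3.22e-05) and KRT18 was at -0.45 ± 0.37 (adjusted p = 0.370). In total mRNA CD44 was at -1.14 ± 0.23 and VIM at -0.34 ± 0.15 (adjusted p = 0.0584 and 0.370). Their part in the members' changes was not tested.

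The stress-inducible HSPA1B had 65.5 and 115 CPM in shNSi heavy polysomes and 29.4 and 24.5 CPM in the shDAP5 ones. The groups did not overlap, and HSPA1B fell 3.34-fold, by 1.74 ± 0.34 on the log2 scale (edgeR, adjusted p = 2.19e-05). HSPA1A had 6.0 and 10 CPM against 3.63 and 3.32 CPM and fell by 1.2 ± 0.39 (adjusted p = 0.0128). Among 15 alternatives the call of HSPA1A held in 8 and was lost in 6, and its estimate changed sign in 1. With the counts of the pair summed the log2 change was -1.69 (adjusted p = 3.48e-05). The constitutive HSPA8 had 6504 and 8504 CPM in shNSi and 2652 and 2620 CPM in shDAP5. Both silenced cultures were well under both controls, and HSPA8 fell by 1.51 ± 0.40 (adjusted p = 0.00189).

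Both HSP110 co-chaperones fell in heavy polysomes. HSPH1 had 572 and 782 CPM in shNSi and 216 and 122 CPM in shDAP5, and fell 4.01-fold, by 2.0 ± 0.38 on the log2 scale (edgeR, adjusted p = 1.32e-05). It had the lowest change of the members. HSPA4 had 626 and 880 CPM against 322 and 248 CPM and fell by 1.40 ± 0.37 (adjusted p = 0.00209).

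Both HSP90 genes had far fewer counts in shDAP5 heavy libraries. HSP90AA1 had 5585 and 7624 CPM in shNSi and 2587 and 2009 CPM in shDAP5, a fall of 1.52 ± 0.40 on the log2 scale (edgeR, adjusted p = 0.00169). HSP90AB1 had 4611 and 6648 CPM against 1698 and 1629 CPM, a fall of 1.76 ± 0.40 (adjusted p = 0.000274). No silenced culture reached a control culture for either gene.

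The J-domain genes did not pass the main test in heavy polysomes. DNAJA1 had 830 and 833 CPM in shNSi and 543 and 510 CPM in shDAP5, which do not overlap, at a log2 change of -0.66 ± 0.37 (edgeR, adjusted p = 0.166). It passed with DESeq2 (-0.74, adjusted p = 0.0415) and in edgeR with coding length offsets and a replicate block (-0.76, adjusted p = 0.0485). DNAJB1 had 319 and 282 CPM against 288 and 295 CPM, with overlapping groups. Its estimate of -0.046 ± 0.36 turned to 0.20 with library sizes alone and to 0.29 with limma. HSPB1, the small heat shock protein, had 167 and 78.9 CPM in shNSi and 239 and 258 CPM in shDAP5. It rose by 1.01 ± 0.35 on the log2 scale (adjusted p = 0.0193), in the opposite direction to the 7 members that fell. It was no longer called without shNSi replicate 2 (0.55, edgeR, adjusted p = 0.373), without shDAP5 replicate 1 (1.03, 0.0895) or without shDAP5 replicate 2 (0.94, 0.24). Nor was it called with coding length offsets (0.32, adjusted p = 0.508), with those offsets and a replicate block (0.40, 0.265), or with shNSi moderate in place of heavy (0.16) or summed with it (0.49).

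**Figure D3:**
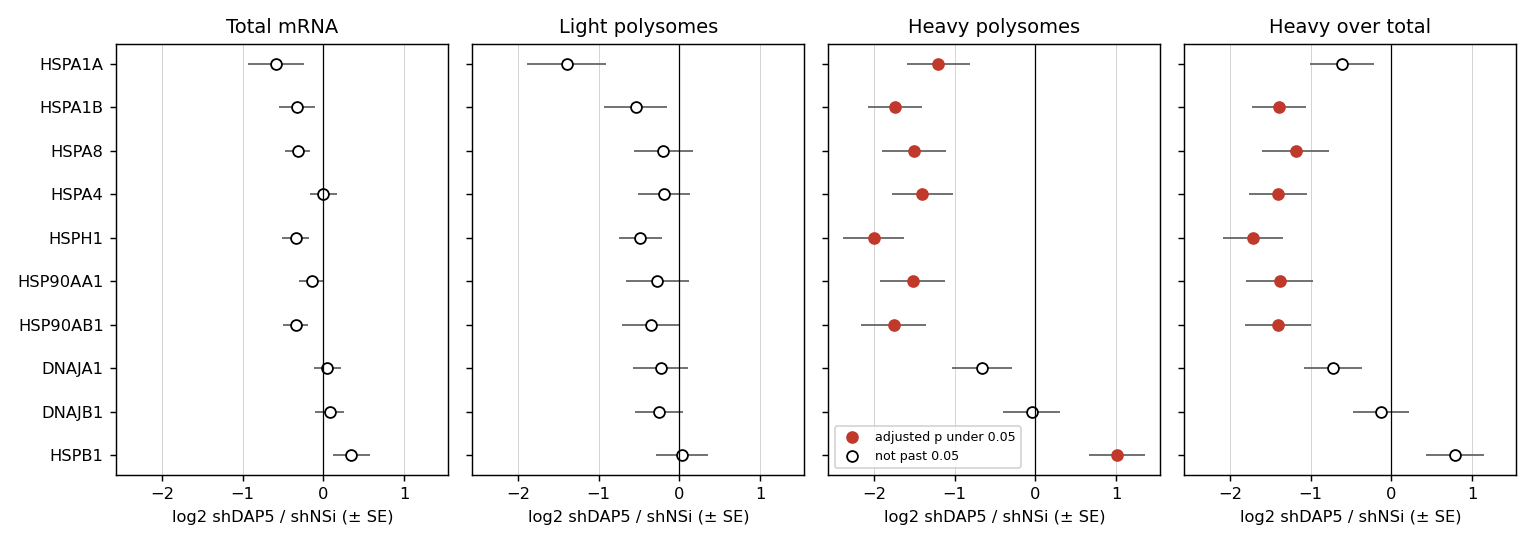
Log2 change of shDAP5 against shNSi for the 10 genes, with bars of 1 SE, in total mRNA, light polysomes, heavy polysomes and heavy polysomes relative to total mRNA (edgeR). Filled red points have an adjusted p under 0.05: none in total and light, 8 in heavy and 6 in heavy over total.

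The result depended on which control pool was set against shDAP5 heavy. The shNSi heavy and moderate counts were summed for each culture, which weights the pools by their library counts, not by the RNA each held in the gradient. With this sum the members' median was -0.64, beside -0.020 for all genes. Of the members 0 of 10 were called, as were 421 of 15184 genes. HSPH1 then stood at -1.16 ± 0.38 (edgeR, adjusted p = 0.0699), HSPA1B at -0.90 ± 0.35 and HSP90AB1 at -0.88 ± 0.42. With the shNSi moderate pool alone as the control, the estimates of the 7 members that had fallen were above 0, from 0.43 ± 0.43 for HSPH1 to 1.09 ± 0.45 for HSPA4, and 0 were called, as were 50 of 14539 genes. Their adjusted p-values against the moderate pool ran from 0.564 to 1.00 in edgeR. DNAJB1 moved little between the choices, from -0.046 to -0.10.

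**Figure D4:**
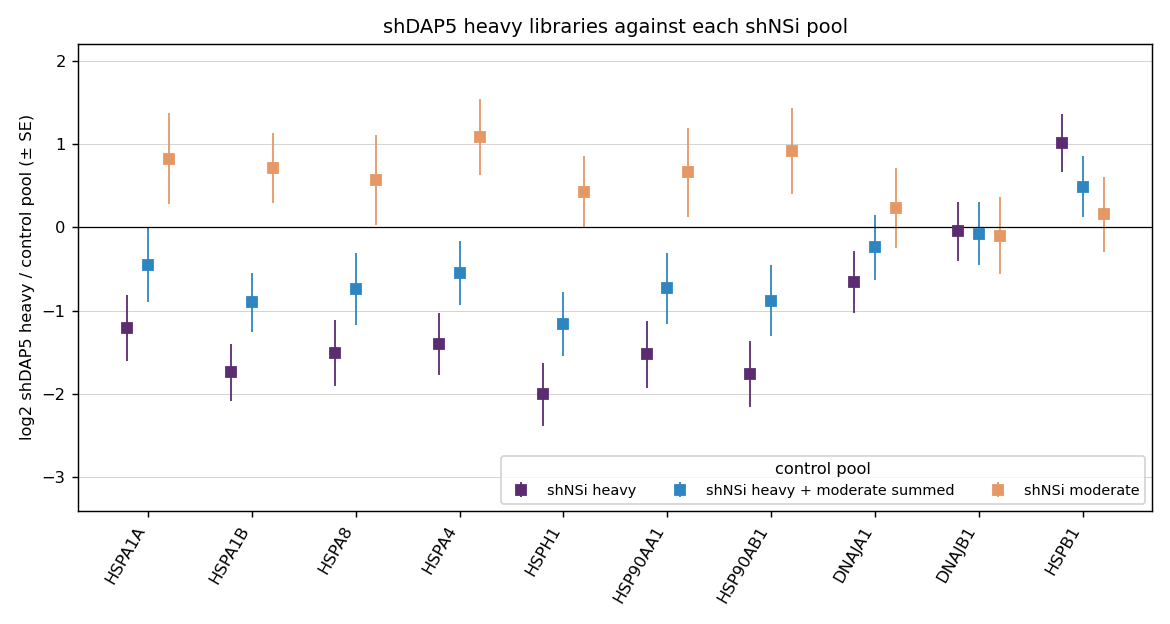
Log2 change of shDAP5 heavy libraries against 3 choices of the shNSi pool, with bars of 1 SE (edgeR). The changes of HSPA1A to HSP90AB1 are negative against shNSi heavy, nearer to 0 against heavy and moderate summed, and positive against shNSi moderate, while DNAJB1 stays near 0 throughout.

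Translation efficiency is the polysome level of an mRNA relative to total mRNA of the same culture, and its change asks whether the polysome change exceeds that in abundance. In heavy polysomes 6 members fell and none rose, in a fit that called 13.1% of 15374 genes, 8.23% lower and 4.85% higher. The median of the members was -1.29 and that of all genes 0.091. The ratio was lower in both shDAP5 cultures than in both shNSi cultures for 8 members and 28.0% of all genes, and higher for 1 member and 32.2%. HSPH1, for which log2 heavy over total was 1.06 and 1.72 in shNSi and 0.15 and -0.80 in shDAP5, fell by 1.71 ± 0.37 (edgeR, adjusted p = 0.00750) and ranked 163 from the lowest. HSPA4, at 1.13 and 1.59 against 0.18 and -0.28, fell by 1.41 ± 0.36 (adjusted p = 0.0114).

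Of the HSP90 genes, HSP90AB1 had log2 ratios of heavy to total of 1.08 and 1.54 in shNSi and 0.01 and -0.20 in shDAP5, a fall of 1.40 ± 0.41 (edgeR, adjusted p = 0.0206). HSP90AA1 had 1.17 and 1.59 against 0.24 and -0.26, a fall of 1.39 ± 0.41 (adjusted p = 0.0240). HSPA1B, at 1.18 and 1.57 against 0.03 and -0.07, fell by 1.40 ± 0.34 (adjusted p = 0.00868). HSPA8, at 1.08 and 1.44 against 0.21 and -0.06, fell by 1.19 ± 0.41 (adjusted p = 0.0480). For these genes the log2 ratio was above 1 in each control culture and at most 0.24 in each silenced one.

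The remaining members did not pass for heavy translation efficiency. HSPA1A stood at -0.61 ± 0.39 and DNAJA1 at -0.72 ± 0.36 (edgeR, adjusted p = 0.298 and 0.168), and the summed HSPA1A and HSPA1B counts at -1.32 (adjusted p = 0.0111). DNAJB1 was at -0.13 ± 0.34, turning to 0.085 with library sizes alone and 0.15 with limma, and HSPB1 was at 0.79 ± 0.36 (adjusted p = 0.127). The count of members called was 2 with a replicate block, where 688 of 15374 genes were called, and 0 with no term for each culture and with library sizes alone, where 0 genes were called. It was 2 without shNSi replicate 1 (572 genes called), 0 without shNSi replicate 2 (4 genes) and 0 without shDAP5 replicate 2 (43 genes). With shNSi heavy and moderate summed it was 0, as was the count of all genes, with estimates from -0.76 for HSPH1 to 0.33 for HSPB1.

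The change in heavy translation efficiency ran with coding length across the whole table, and across the members as well. Spearman's rho between the 2 was -0.71 across 12485 genes, which share the same 8 libraries and are not independent replicates, and -0.91 across the 10 members. Genes of 2028 to 2526 nt, the range that holds HSPA4, HSP90AA1 and HSP90AB1, had a median log2 change of -0.48, with quartiles at -0.90 and -0.03, so that all 3 members lay below the lower quartile. HSPH1 lay below that of its bin too, where the quartile was at -1.10. In the bin from 1671 to 2025 nt, with a median of -0.29 and a lower quartile of -0.73, HSPA1B and HSPA8 lay under the quartile and HSPA1A did not. DNAJA1 and DNAJB1 lay below the lower quartiles of their bins too, at -0.35 and -0.11. HSPB1, at 0.79, was within the quartiles 0.37 and 0.87 of its own bin. With an offset for coding length fitted in each library, 422 of 15374 genes were called. Of the members 4 fell, HSPH1 (-1.14, edgeR, adjusted p = 0.0238), HSPA1B (-1.05, 0.0323), HSP90AB1 (-0.96, 0.0416) and HSP90AA1 (-0.93, 0.0496), and HSPB1 was at 0.13. HSPA8 and HSPA4 then stood at -0.83 and -0.85 (adjusted p = 0.0759 and 0.0554). The part of coding length in these changes was not tested beyond this offset.

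**Figure D5:**
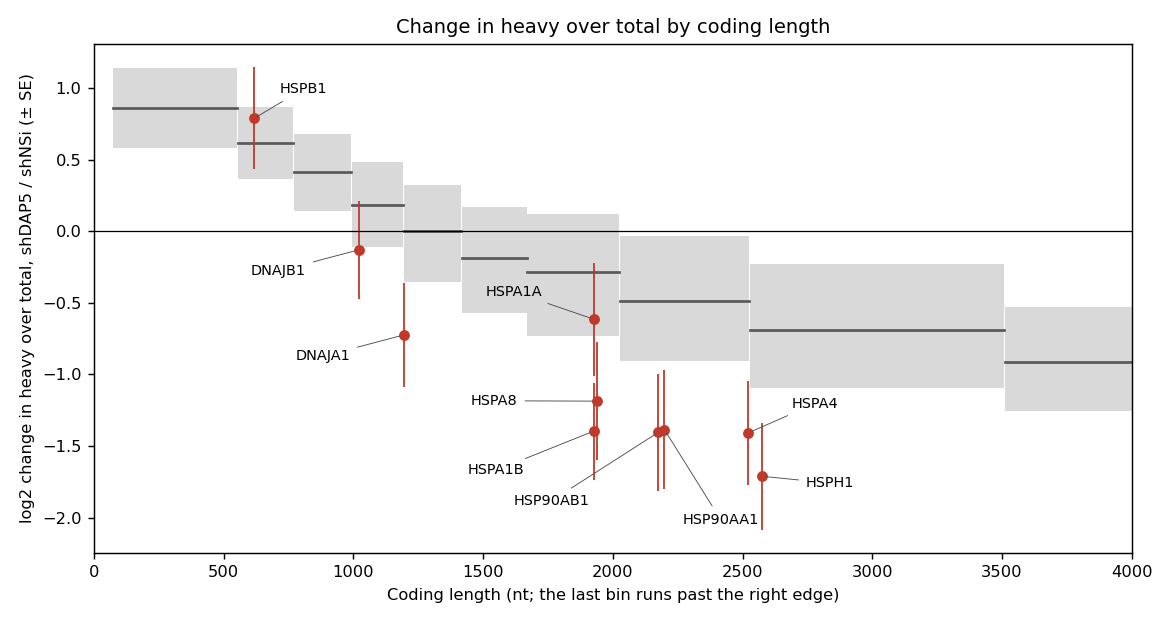
Change in heavy over total mRNA (log2 shDAP5 over shNSi, points with bars of 1 SE) against coding length in nt for the 10 genes. Grey boxes and lines are the quartiles and medians of 10 bins of all genes with a coding length. HSPB1 at 618 nt lies above 0, and all members but HSPB1 and HSPA1A lie below the boxes of their bins.

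In light polysomes no member passed, nor did any of the 15529 genes tested (0% called in edgeR). At an unadjusted p under 0.05 stood 1330 genes, or 8.56%, and 1 member, HSPA1A, while DESeq2 called 105 genes and limma 0, with 0 members in either. HSPA1A had 1.66 and 2.37 CPM in the shNSi light and 0.87 and 0.65 CPM in the shDAP5 light libraries, a log2 change of -1.40 ± 0.49 (edgeR, adjusted p = 0.530). That rests on 18 to 61 counts per library. The shDAP5 cultures lay below both controls for 2 members, HSPA1A and HSPH1, as did 20.2% of all genes. HSP90AA1 showed the wide spread of the controls, with 524 and 1109 CPM in shNSi and 708 and 644 CPM in shDAP5. HSPA8 had 960 and 1737 CPM in shNSi and 1161 and 1185 CPM in shDAP5, again with both silenced cultures between the controls. HSPB1 had 212 and 229 CPM against 275 and 176 CPM. With the pair summed, the log2 change of HSPA1A and HSPA1B was -0.63 (edgeR, adjusted p = 0.649). Without shNSi replicate 1 there were 6 members called lower, among 4678 of 16190 genes called in either direction, and without shNSi replicate 2 the estimates of 6 members turned above 0, so this comparison rested on which control culture was kept. Light translation efficiency gave 0 members and 0% of 15967 genes called, with 833 genes (5.22%) and 0 members at an unadjusted p under 0.05 and 0 genes in DESeq2 or limma. The members' estimates ran from -0.79 for HSPA1A to 0.21 for HSPA8.

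Other genes of the cytosolic chaperone system were read from a list of 68, none of them a member, of which 62 were tested. In heavy translation efficiency 6 of these fell and 5 rose, at a median of 0.01, beside 8.23% of all genes lower and 4.85% higher. For the list as a whole the counts were thus close to those of all genes, and in total mRNA 0 passed. The other HSP70 family genes included 2 that fell, with HSPA4L, an HSP110 relative of HSPA4 with a coding sequence of 2520 nt, at -1.71 ± 0.36 (edgeR, adjusted p = 0.00672). UNC45A, an HSP90 co-chaperone for myosin folding, stood at -1.20 ± 0.34 (adjusted p = 0.0186) and the heat shock factor HSF2 at -1.14 ± 0.34 (adjusted p = 0.0245). In the opposite direction were PFDN5 (1.25 ± 0.36, adjusted p = 0.0188) and PFDN2 (1.21 ± 0.34, adjusted p = 0.0189), subunits of prefoldin, each with 465 nt of coding sequence, and STUB1, a ubiquitin ligase that binds HSP70 and HSP90 (1.15 ± 0.34, adjusted p = 0.0236). These 6 were the lowest and highest of the 54 list genes with at least 10 CPM in total mRNA. By sub-list, 3 of 6 prefoldin subunits rose and none fell, at a median of 1.00, and 0 of 13 other J-domain genes tested passed. Of the 8 subunits of the TRiC chaperonin 1 fell, at a median of -0.95, and all 8 were lower in both shDAP5 cultures than in both shNSi cultures, as were 28.0% of all genes. In heavy polysomes before division by total mRNA 6 of 8 TRiC subunits fell (median -1.10) and 6 of 6 prefoldin subunits rose (median 1.14), beside 16.7% of all genes lower and 14.2% higher.

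The counterparts of the members in other compartments were listed as 10 genes, and 6 of them fell and 1 rose in heavy translation efficiency, beside 8.23% and 4.85% of all genes. In the endoplasmic reticulum, HSPA5, its HSP70, stood at -1.40 ± 0.37 (edgeR, adjusted p = 0.0133), HSP90B1 at -1.55 ± 0.38 (adjusted p = 0.00927) and HYOU1, its HSP110 relative, at -1.52 ± 0.35 (adjusted p = 0.00824). In mitochondria, HSPA9 stood at -1.30 ± 0.37, HSPD1, the chaperonin, at -1.12 ± 0.37 and TRAP1, an HSP90, at -0.99 ± 0.33 (adjusted p = 0.0198, 0.0393 and 0.0408). HSPE1, the short co-chaperonin, rose by 1.28 ± 0.35 (adjusted p = 0.0147). The J-domain genes DNAJB11 (-0.17 ± 0.34), DNAJA3 (-0.37 ± 0.33) and DNAJB9 (0.08 ± 0.37) did not pass, as the J-domain genes of the cytosol did not. In total mRNA 0 of the 10 passed.

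Across the 14 libraries the log2 CPM of the members other than HSPB1 moved together, as described by Pearson's r, over libraries that share 4 cultures and differ mainly by fraction. The highest of the 45 pairwise values was 0.99, between HSPA4 and HSP90AB1. DNAJB1 had r between 0.70 and 0.91 with the others except HSPB1, whose values with the other 9 ran from -0.46 with HSPA8 to 0.11 with DNAJB1. Among 9388 genes with at least 10 CPM on average, those most like HSPA8 were PFKP, CCAR2, ABCF1, MCM7 and NOLC1, with r from 0.994 to 0.996 and coding sequences of 2100 to 2772 nt. Those most like HSPA1A, among 9389 genes, were ACAD9, GYS1, OBSL1, TARS2 and PRMT7, all at 0.97, with coding sequences of 1866 to 5691 nt.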

How the data were processed

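The authors deposited raw counts, whole numbers of reads per gene symbol and library, without normalization. The submitters' processing notes name STAR 2.6.0a, limma and the hg19 build, without their roles. The name of the table contains featureCounts, a read counter. Its annotation, strand and multi-mapping settings are not stated in the sources used here.

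Counts were analysed in R 4.3.3 with edgeR 4.0.16: filterByExpr (minimum count 10), TMM and the robust quasi-likelihood test on all genes that passed, with p-values adjusted by the Benjamini-Hochberg method and a threshold of 0.05. Total, light and heavy mRNA were fitted in 4 libraries each. Changes in translation efficiency were taken as the interaction term between library kind and shRNA, fitted in 8 libraries with a term for each culture, and the gradients used all libraries of a line with such terms. CPM values are scaled within each fit. Fractions were compared only as log2 ratios or correlations from a fit or scaling that holds the libraries compared. An exact permutation test of 2 cultures against 2 cannot go below p = 0.333 (two-sided), so none is given. The study describes its data as a pair of independently performed sets, without saying how the cultures of a set were kept apart. The p-values rest on the spread between these 2 cultures per line, moderated by a trend over all genes fitted. They do not measure a gene's own spread alone.

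Coding lengths, gene positions and sequences are from GENCODE v29 and RefSeq on GRCh38, matched by symbol to the hg19 counts, and 81.2% of the genes tested for heavy translation efficiency had a coding length. Alternatives were library sizes alone, DESeq2 1.42.0, limma 3.58.1 on quantile-normalized log2 CPM, no filter, each culture left out, a replicate block, other control pools, coding length offsets with and without the block, and HSPA1A and HSPA1B summed. Crossed pairing and the summed shNSi light and moderate control were added after seeing the data. Fits were tested on simulated data, where the share of false calls exceeded the threshold in every fit but shNSi heavy against light, and the comparison of heavy against light between the lines recovered the fewest changes and had the highest share of false calls. Whether the replicate numbers pair the cultures of both lines is not stated. The deviations of same-numbered cultures correlated between -0.20 and 0.06 over the 6 comparisons, which cannot settle the pairing. The main fits between the lines used no replicate block. Named are the 10 members, EIF4G2, the 3 lowest and 3 highest chaperone network genes in heavy translation efficiency with at least 10 CPM in total mRNA, all organelle counterparts, and the 5 genes nearest to HSPA1A and to HSPA8. The members and lists were chosen with earlier results of these data known.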

Additional observations from a re-analysis of the deposited data

Results flagged for a closer look

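For 8 values the change between shNSi and shDAP5 differed between kinds of library by a test of the difference itself. A possible difference in pool definition cannot be told apart from silencing in any of them. The calls also depended on the control pool, as given below. In heavy polysomes relative to total mRNA these were HSPH1 (-1.71 ± 0.37, log2 change with SE, edgeR), HSPA4 (-1.41 ± 0.36), HSP90AB1 (-1.40 ± 0.41), HSPA1B (-1.40 ± 0.34), HSP90AA1 (-1.39 ± 0.41) and HSPA8 (-1.19 ± 0.41). In heavy relative to light polysomes these were HSPH1 (-1.65 ± 0.48) and HSPA1B (-1.31 ± 0.39). Each was lower in both shDAP5 cultures than in both shNSi cultures, as were 28.0% of all genes for heavy relative to total mRNA and 28.3% for heavy relative to light.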

How the results depend on the processing

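Each comparison rested on 2 cultures per line, and HSPA1A on few counts, which limits what could be detected. With the shNSi moderate pool in place of shNSi heavy, 0 members were called and the heavy estimates turned to 0.83 for HSPA1A, 0.71 for HSPA1B, 0.57 for HSPA8, 1.09 for HSPA4, 0.43 for HSPH1, 0.66 for HSP90AA1, 0.92 for HSP90AB1 and 0.23 for DNAJA1. The heavy translation efficiency estimates turned to 1.49, 1.14, 1.09, 1.2, 0.71, 1.07, 1.41 and 0.35 for the same genes in the same order and to -0.12 for HSPB1, with 0 members called. With shNSi heavy and moderate summed, 0 members were called in heavy, in heavy translation efficiency and in heavy against light, and HSPA1A stood at 0.28 in heavy translation efficiency. The cause was not tested.

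In heavy polysomes 5 members were called with coding length offsets, and 0 to 8 when 1 culture was left out (2 to 3559 genes). In heavy translation efficiency 0 members were called with library sizes alone, 3 with limma (1132 genes), 3 with coding length offsets and a replicate block (654 genes), and 0 to 7 when 1 culture was left out (4 to 4515 genes). Genes called in heavy translation efficiency numbered 2012, against 0 with library sizes alone, 688 with the block and 422 with the offsets, and in heavy 4414, against 421 with the summed pools and 1772 with the offsets. In light, 3 members were called with shNSi moderate as the control (3940 of 15431 genes), as were 2 in light translation efficiency (4367 of 15859 genes), and in light 0 to 6 when 1 culture was left out (2 to 4678 genes). For heavy against light in both lines together, 2 members and 1072 genes were called, against 1 (1637 genes) with library sizes alone, 6 (1965) with DESeq2, 0 (0) with limma, 1 (3762) with shNSi moderate as the light control, 0 with coding length offsets without (0) or with a replicate block (236), and 0 to 2 when 1 culture was left out (2 to 2929). In total mRNA 53 genes were called, against 18 with library sizes alone, 273 with DESeq2, 8 with limma, 577 without the filter and 365 with the block, and 0 members in each.

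A replicate block gave 2 members in heavy translation efficiency (HSPH1, adjusted p = 0.0270, and HSPA1B, 0.0316) and 0 in heavy against light, with 8 in heavy polysomes (4710 genes) and 0 in total and light mRNA. With no term for each culture, 0 members were called in heavy translation efficiency. The correlations of same-numbered cultures did not show that the numbers pair the samples. With the numbers crossed, 8 members were called in heavy translation efficiency (4133 genes), 8 in heavy polysomes (3880 genes) and 2 in heavy against light (2238 genes). DNAJA1 then passed in heavy translation efficiency (-0.72, adjusted p = 0.0353).

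DNAJB1 turned to 0.20 and 0.29 in heavy, to 0.085 and 0.15 in heavy translation efficiency and to -0.28 and -0.36 in shNSi heavy against moderate, with library sizes alone and limma in that order. Leaving out 1 culture gave heavy translation efficiency of -0.29 to 0.024 for DNAJB1. In total mRNA it gave -0.068 to 0.19 for DNAJB1, -0.039 to 0.11 for DNAJA1, -0.059 to 0.65 for HSPB1 and -0.091 to 0.059 for HSPA4, which was at -0.015 with DESeq2 and -0.029 without the filter. In light it gave -0.61 to 0.25 for DNAJA1, -0.73 to 0.36 for HSP90AA1, -0.72 to 0.12 for HSP90AB1, -0.98 to 0.060 for HSPA1B, -0.54 to 0.25 for HSPA4, -0.58 to 0.28 for HSPA8 and -0.32 to 0.31 for HSPB1. HSPB1 in light was at -0.28 with shNSi moderate and -0.14 with shNSi light and moderate summed as the control.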
